A study of Mus musculus with 6 samples.

Results

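The PI3K, AKT and Sgk genes examined here were 8 members picked by name: the kinase genes Sgk1, Sgk3, Akt1 and Akt2, the PI3K catalytic genes Pik3cd and Pik3cg, the lipid phosphatase gene Inpp5d and the transcription factor gene Foxo3. All 8 were found among the 36083 genes of the per-library table, and all 8 passed the minimum mean of 1 that a gene needed to be tested. The RNA came from blast crisis chronic myeloid leukemia (bcCML) cells of mice, a leukemia made by infecting KLS progenitors with retroviruses for BCR-ABL and NUP98-HOXA9. The WT group had 3 libraries labelled as from progenitors of WT donors, and the other group had 3 labelled as from Sdc1-/- donors. Donors of both groups were on the B6 background, the recipients were NSG mice by the labels, where the general methods of the study name irradiated CD45.1 mice for primary transplants, and lineage-negative (Lin-) cells were sorted from the spleen when both cohorts were killed together. Both fusion genes were used for every sample, and no group without them is compared here. The labels give no age or sex. The study's reporting summary states that its animals were matched for both, and the age range there differs from that in the methods. The labels also do not say whether the 3 libraries of a group came from separate mice, while a legend in the study's supplement counts WT libraries as technical replicates. Every SD, SE and p-value may therefore cover technical spread only.

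Class I PI3K turns the membrane lipid PIP2 into PIP3, which recruits AKT to the membrane, where the kinases PDK1 and mTORC2 activate it. The Sgk kinases are relatives of AKT and are activated by the same upstream kinases. SHIP1, the product of Inpp5d, takes a phosphate from PIP3. Active AKT and Sgk phosphorylate FoxO transcription factors and hold them in the cytoplasm. BCR-ABL signals through PI3K, and the p110δ and p110γ catalytic subunits encoded by Pik3cd and Pik3cg are the forms typical of leukocytes.

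Values are TPM, a measure of transcript abundance corrected for gene length, which had been rescaled between libraries before deposit. Their sums ran from 1048875 to 1058263 in the WT group and from 944973 to 951814 in the other. The sums thus differed by group. Read depth is unknown, and no counting interval can be given. Sdc1, the targeted gene, stood at 1.75, 1.21 and 1.51 in the WT group and at 3.85, 3.80 and 4.12 in the group labelled Sdc1-/-. It was therefore higher where the label says knockout (log2 fold change 0.99, standard error [SE] 0.093, limma adjusted p = 0.000118), and both groups are called by their labels throughout. The paper describes an allele whose signal peptide sequence is disrupted, so that mature protein does not reach the cell surface. Loss was checked there by genomic PCR and by staining. Whether this allele keeps its mRNA was not tested here. An exchange of the group labels was not tested for, and every direction given here rests on these labels. The Y-linked gene Ddx3y was at 0.0158 or below in the libraries labelled WT and between 12.1 and 14.1 in those labelled Sdc1-/-. Eif2s3y (at most 0.0116 against 43.2 to 49.8) and Uty (at most 0.0546 against 6.26 to 7.98), also Y-linked, differed in the same way. Y-linked expression and genotype label thus cannot be told apart in any fold change given here. The matching for sex that the reporting summary states is not seen in these libraries. Of the leukemic progenitor genes, Hoxa9 ran from 80.9 to 89.0 in the WT group and from 91.5 to 101 in the other. Kit ran from 12.2 to 13.7 and from 14.4 to 14.9, and Cd34 from 45.0 to 48.8 and from 39.3 to 40.7. Spi1 differed more, at 53.5% of its WT mean. The progenitor list of 9 had 4 higher and 5 lower genes, with sums from 830 to 859 in the WT group and from 664 to 676 in the other. The groups did not overlap in any of the 9, as in 66.7% of all genes tested. In the libraries labelled Sdc1-/-, 10 of 10 neutrophil marker genes and 8 of 8 tested monocyte and macrophage marker genes were lower. The summed neutrophil markers ran from 13154 to 14072 in the WT group and from 4980 to 5108 in the other, and the summed monocyte and macrophage markers from 82.1 to 85.3 and from 29.7 to 32.5. The erythroid markers had 7 lower genes and 1 higher of 8, with sums from 9494 to 10195 and from 5258 to 5658. T cell markers summed to at most 2.79 and B cell markers to at most 3.37 in any library, with Cd3e at 0.0382 or below. In the WT group and the other group, NK cell markers summed to 12.9 to 13.2 and 8.22 to 8.30. Megakaryocyte and platelet markers summed to 486 to 513 and 495 to 508, although 4 of 5 tested genes were lower and 1 higher. The higher gene was Pf4, with means of 266 and 305. Stromal and endothelial markers summed to 21.9 to 23.4 and 17.0 to 17.3, mostly Pecam1 (means 15.3 and 12.9) and Pdgfrb (7.31 and 4.18). Cdh5, Kdr, Col1a1 and Col3a1 were at 0.116 or below in every library. The part of these marker shifts in the results that follow was not tested, and in bulk RNA fewer cells of a type and less RNA per cell cannot be told apart.

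Sgk1 had the largest difference of the 8 genes, and Akt1 and Akt2 had small ones. At an adjusted p under 0.05 (limma on log2(value + 1), Benjamini-Hochberg over all 12155 genes tested), 4 members fell, 1 rose and 3 were not called in the libraries labelled Sdc1-/-. Sgk1, Pik3cg, Inpp5d and Akt1 fell, Pik3cd rose, and Sgk3, Akt2 and Foxo3 were not called. So many genes differed in this comparison, 60.7% of those tested, that 5 of 8 is a share near the background. In either direction, 31.3% of the tested genes were lower and 29.3% higher. In all 8 members the groups did not overlap, as was also the case in 66.7% of all genes tested. The median log2 fold change of the members was -0.22, beside -0.0097 over all genes tested. The choice of scaling mattered for the smaller differences. With all libraries brought to an equal sum, the median of all genes moved to 0.12 and the calls over all genes went from 51.7% lower to 31% lower. The members then gave 2 higher and 2 lower genes, Pik3cd and Foxo3 against Sgk1 and Pik3cg.

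**Figure D1:**
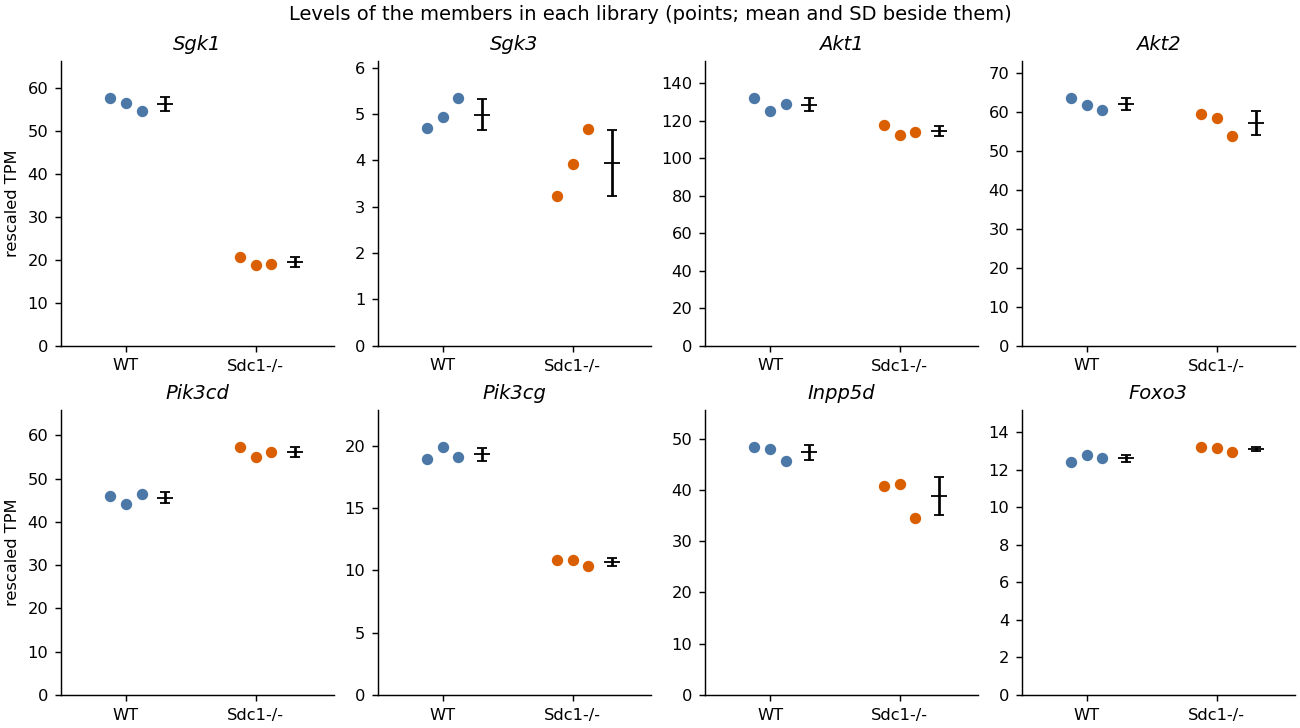
Rescaled TPM of the 8 members on linear axes that start at 0, with a point for each of the 3 libraries per group and the mean with its SD beside them. Sgk1 sits between 54.6 and 57.7 in the WT group and between 18.8 and 20.7 in the group labelled Sdc1-/-, whereas the Foxo3 points lie between 12.4 and 13.2 in all 6.

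Sgk1 (ENSMUSG00000019970, chr10:21882184-21999903, plus strand, GRCm38) encodes the serum- and glucocorticoid-regulated kinase, whose transcript is induced quickly by growth factors and steroid hormones. It measured 57.7, 56.7 and 54.6 in the WT group and 20.7, 18.8 and 19.0 in the group labelled Sdc1-/-. Every WT value was thus far above every value of the other group, whose mean was 34.6% of the WT mean. The log2 fold change was -1.48 (SE 0.047, 95% interval -1.60 to -1.37, limma adjusted p = 1.57e-06). This was the 119th lowest of the 12155 fold changes. The level in the WT group was above that of 93.4% of all 36083 genes in the table, of which 11369 were at 0 in every library. Relative to the median of all genes, the log2 fold change was -1.47 in the scaling of the authors, -1.46 with equal sums and -1.48 after quantile normalization. The exact permutation test of this gene alone gave p = 0.1 (two-sided), the smallest that 3 libraries against 3 allow.

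To show the sequence upstream of genes that changed, the 250 bases before each RefSeq start site (GRCm38.p6) were searched for letters bound by factors tied to this pathway, on both strands. Windows were at hand for 7 of the 8 members, 19 in all, and Sgk3 had 0. The searched letters were GNACA and TGTNC with 3 bases between them (glucocorticoid receptor), GTAAACA (forkhead, the family of FoxO), GAGGAAGT (PU.1), TTCNNNGAA (STAT) and TGACGTCA (CREB), and the letters were chosen with the expression values known. The glucocorticoid receptor letters were in 1 of the 19 windows, at a start site of Sgk1, and in 0.387% of 32851 windows of all genes. The match covers the bases from 188 to 176 before that start, which is among 6 start sites with a window for Sgk1, and a value summed per gene cannot tell these starts apart. The capitals mark the match in the window chr10:21993640-21993889, plus strand.
Sgk1: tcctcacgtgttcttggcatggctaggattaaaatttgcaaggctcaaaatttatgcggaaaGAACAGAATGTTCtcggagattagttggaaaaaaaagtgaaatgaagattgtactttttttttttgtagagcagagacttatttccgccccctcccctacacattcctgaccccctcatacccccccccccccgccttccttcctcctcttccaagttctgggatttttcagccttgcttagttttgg

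Sgk3 (ENSMUSG00000025915, chr1:9798107-9900845, plus strand) encodes the Sgk kinase that binds PI3P on endosomes through its PX domain. It was low, at 4.69, 4.93 and 5.34 in the WT group and 3.24, 3.92 and 4.67 in the group labelled Sdc1-/-. The highest of the second group lay just under the lowest of the first, and the libraries labelled Sdc1-/- spread more widely. The log2 fold change of -0.29 (SE 0.11, 95% interval -0.54 to -0.03) came with a limma adjusted p of 0.0575, not past the threshold. Without replicate 3 of the libraries labelled Sdc1-/- it was -0.39 with a limma adjusted p of 0.0129. Without replicate 1 of the same group it was -0.18 (limma adjusted p = 0.131), and with equal sums -0.16 (limma adjusted p = 0.241). The remaining paralog, Sgk2, was at 0.140, 0.0820 and 0.153 in the WT group and listed at 0 in all 3 of the others, under the minimum mean. Of the summed Sgk values, Sgk1 made up 91.7% ± 0.73 (SD, n = 3) in the WT group and 83.2% ± 3.15 (SD, n = 3) in the other. All 3 shares of the libraries labelled Sdc1-/- were below all 3 WT shares, a difference of -8.51 percentage points (exact permutation test, two-sided, p = 0.1, and 0.133 after adjustment over the 4 families examined). A share does not depend on the scaling between libraries.

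Akt1 (ENSMUSG00000001729, chr12:112653821-112674884, minus strand), a broadly expressed AKT kinase, had the highest level of the 8 members in both groups. It stood at 132, 125 and 129 in the WT group and at 118, 113 and 114 in the group labelled Sdc1-/-. The groups were separate but close, with a log2 fold change of -0.16 (SE 0.034, limma adjusted p = 0.00472). That call was lost with equal sums, where the log2 fold change was -0.017 (adjusted p = 0.663), and after quantile normalization, where it was -0.071 (adjusted p = 0.105). Akt2 (ENSMUSG00000004056, chr7:27591552-27640826, plus strand), known for its part in insulin-driven glucose uptake, was at 63.5, 61.9 and 60.4 and at 59.5, 58.4 and 53.7. No value of the libraries labelled Sdc1-/- reached those labelled WT, yet the log2 fold change of -0.11 (SE 0.046, 95% interval -0.22 to -0.01) came with a limma adjusted p of 0.0667. Without replicate 1 of the libraries labelled Sdc1-/- the adjusted p was 0.0458, and with equal sums the sign turned to 0.032 (adjusted p = 0.538).

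In GENCODE M21, 13.3% of the 7255 words of 31 bases in Akt2 transcripts also occur in the pseudogene Akt2-ps, which was at 0.221 or below in every library, and for the other members at most 1.75% of the words occur in another gene.

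**Figure D2:**
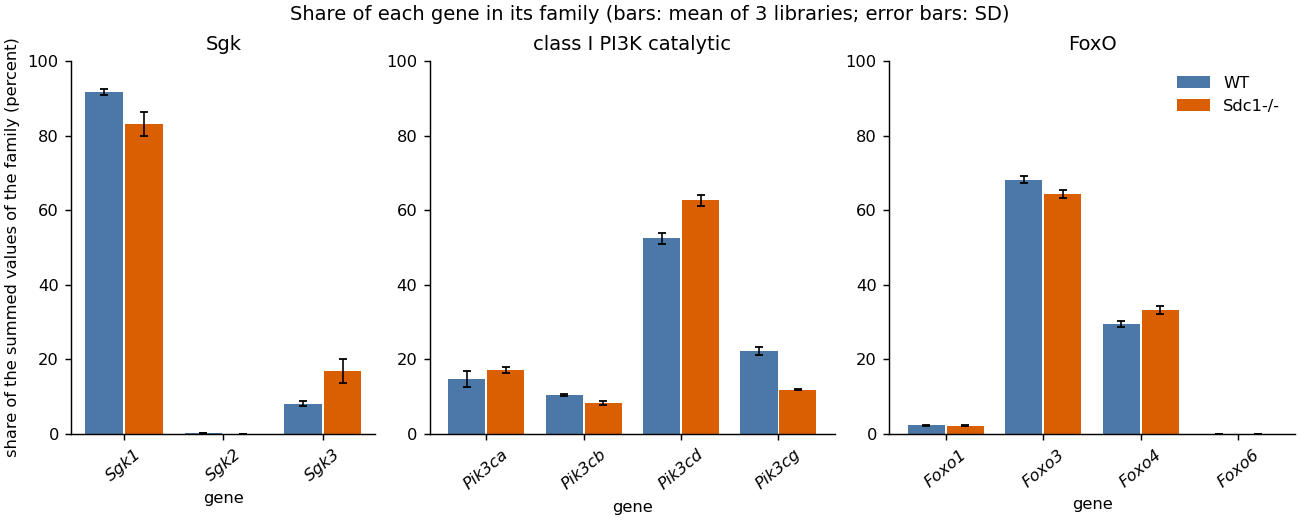
Share of each paralog in the summed rescaled TPM of its family, in percent, with bars for the mean of 3 libraries and error bars for the SD. The Pik3cg bar goes from 22.2% in the libraries labelled WT to 11.9% in those labelled Sdc1-/-, and the Pik3cd bar from 52.5% to 62.7%.

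The leukocyte PI3K catalytic subunits moved in opposite directions. Pik3cd (ENSMUSG00000039936, chr4:149649168-149702571, minus strand) encodes p110δ, which acts below tyrosine kinases and cytokine receptors. It rose from 46.1, 44.3 and 46.5 in the libraries labelled WT to 57.3, 55.0 and 56.3 in those labelled Sdc1-/-, with no overlap. The log2 fold change was 0.29 (SE 0.034, limma adjusted p = 0.000327), and it ran from 0.27 to 0.44 over the 14 alternatives, all of which kept the call. Pik3cg (ENSMUSG00000020573, chr12:32173473-32208659, minus strand) encodes p110γ, which acts below G protein-coupled receptors such as chemokine receptors. It measured 18.9, 19.9 and 19.1 in the WT group and 10.9, 10.9 and 10.3 in the group labelled Sdc1-/-. The mean was thus 55.3% of the WT mean, and the log2 fold change was -0.80 (SE 0.042, limma adjusted p = 8.78e-06), with a range of -0.85 to -0.66 over the alternatives.

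The widely expressed p110α gene Pik3ca overlapped between the groups, with 15.1, 12.4 and 11.04 in the WT group and 14.9, 16.3 and 14.8 in the others. Its log2 fold change of 0.25 (SE 0.11) came with a limma adjusted p of 0.0770, and it was called with equal sums and without replicate 1 of the WT group. The p110β gene Pik3cb fell from 9.15, 9.14 and 9.14 to 7.36, 7.92 and 6.90, a log2 fold change of -0.27 (limma adjusted p = 0.00443) that was not called with equal sums. Pik3cd made up 52.5% ± 1.47 (SD, n = 3) of the summed class I catalytic values in the WT group and 62.7% ± 1.46 (SD, n = 3) in the other, which is 10.2 percentage points more. Pik3cg made up 22.2% ± 1.00 and 11.9% ± 0.20 (SD, n = 3 in each group). The Pik3cd shares did not overlap (exact permutation test, two-sided, p = 0.1, adjusted p = 0.133), and the summed class I and other PI3K catalytic values ran from 107 to 110 in the WT group and from 105 to 108 in the other.

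Of the partners of p110γ, Pik3r5 fell and Pik3r6 was too low to be tested. Pik3r5, which encodes the p101 regulatory subunit, was at 1.94, 1.87 and 1.86 in the WT group and at 0.981, 1.03 and 0.979 in the group labelled Sdc1-/-. Its mean was 52.8% of the WT mean, near the 55.3% of Pik3cg, and the log2 fold change was -0.53 (limma adjusted p = 0.000480). Pik3r6, the gene of the alternative p84 subunit, lay below the minimum mean with 0.809, 1.07 and 1.00 against 0.482, 0.475 and 0.602, and was 54.1% of its WT mean. Among the subunits that pair with p110δ, α and β, Pik3r1 (p85α) fell by 0.51 and Pik3r2 (p85β) rose by 0.52 on the log2 scale (limma adjusted p = 0.000804 and 0.000141). Pik3ap1, also named BCAP, an adaptor that brings PI3K to activated receptors, fell from 8.53, 7.97 and 7.98 to 3.91, 4.06 and 4.22 (log2 fold change -0.85, limma adjusted p = 1.81e-05). The groups did not overlap in these 4 tested genes or in Pik3r4 (log2 fold change 0.496), the only other tested gene of the regulatory list. That was also the case in 66.7% of all genes tested.

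Inpp5d (ENSMUSG00000026288, chr1:87620312-87720507, plus strand) encodes SHIP1, the blood-specific phosphatase that takes the 5-phosphate from PIP3. It was at 48.3, 47.9 and 45.7 in the WT group and at 40.8, 41.1 and 34.5 in the group labelled Sdc1-/-, where replicate 3 was the lowest. The groups did not overlap, and the log2 fold change was -0.28 (SE 0.069, 95% interval -0.45 to -0.12, limma adjusted p = 0.0103). With equal sums it was -0.14 with an adjusted p of 0.111, not past the threshold. Inppl1, the gene of the related SHIP2, was low and rose from 0.970, 1.44 and 1.23 to 3.13, 3.06 and 2.55, a log2 fold change of 0.82 (limma adjusted p = 0.000487).

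The windows of Pik3cg and Inpp5d are printed because both genes fell and both hold the letters for PU.1, a myeloid transcription factor. Its gene Spi1, one of the progenitor list, was at 111, 113 and 109 in the WT group and at 65.3, 58.9 and 54.0 in the others. These letters occur in 2 of the 19 member windows and in 2.44% of all windows. They lie on the gene strand in Inpp5d (bases 20 to 13 before the start) and on the opposite strand in Pik3cg (bases 191 to 184). The windows of Sgk1 and Akt1, which also fell, do not hold them, and a part of PU.1 in any of these falls was not tested. The forkhead letters were in 2 member windows, of Akt1 and Pik3cg, and in 3.17% of all windows, the STAT letters in 2, of Akt2 and Sgk1, and in 7.02%, and the CREB letters in 0 and in 1.55%. The capitals mark the PU.1 letters in chr12:32208471-32208720, minus strand, and in chr1:87620062-87620311, plus strand.
Pik3cg: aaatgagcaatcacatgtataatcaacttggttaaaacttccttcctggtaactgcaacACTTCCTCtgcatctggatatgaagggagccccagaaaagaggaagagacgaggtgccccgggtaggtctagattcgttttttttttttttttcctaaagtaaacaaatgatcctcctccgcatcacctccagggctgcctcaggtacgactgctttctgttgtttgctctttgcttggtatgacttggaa
Inpp5d: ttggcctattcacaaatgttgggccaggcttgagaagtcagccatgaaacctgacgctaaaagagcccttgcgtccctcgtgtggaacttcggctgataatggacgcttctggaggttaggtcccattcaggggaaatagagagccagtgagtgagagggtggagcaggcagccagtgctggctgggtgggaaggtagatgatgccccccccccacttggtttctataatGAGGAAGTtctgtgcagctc

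Foxo3 (ENSMUSG00000048756, chr10:42181841-42276755, minus strand) encodes the FoxO factor best known from blood stem cells, where it guards quiescence. It measured 12.4, 12.8 and 12.6 in the WT group and 13.2, 13.1 and 13.0 in the group labelled Sdc1-/-. The groups were separate by a small margin, and the log2 fold change of 0.052 (SE 0.037, 95% interval -0.04 to 0.14) came with a limma adjusted p of 0.265. With equal sums it was 0.19 (adjusted p = 0.00365), which is 0.068 above the median of all genes in that scaling. Foxo4 rose from 5.18, 5.45 and 5.70 to 7.16, 6.73 and 6.43 (log2 fold change 0.27, limma adjusted p = 0.00610). Foxo1 was below the minimum mean, between 0.404 and 0.493 in all 6 libraries. Foxo3 held 68.2% ± 0.86 of the summed FoxO values in the WT group and 64.4% ± 1.06 in the other (SD, n = 3 in each group), with no overlap (difference -3.76 percentage points, exact permutation test, two-sided, p = 0.1, adjusted p = 0.133). In the AKT family, the last of the 4 compared, the groups overlapped (exact permutation test, two-sided, p = 0.2, adjusted p = 0.2), and its shares are not reported here.

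**Figure D3:**
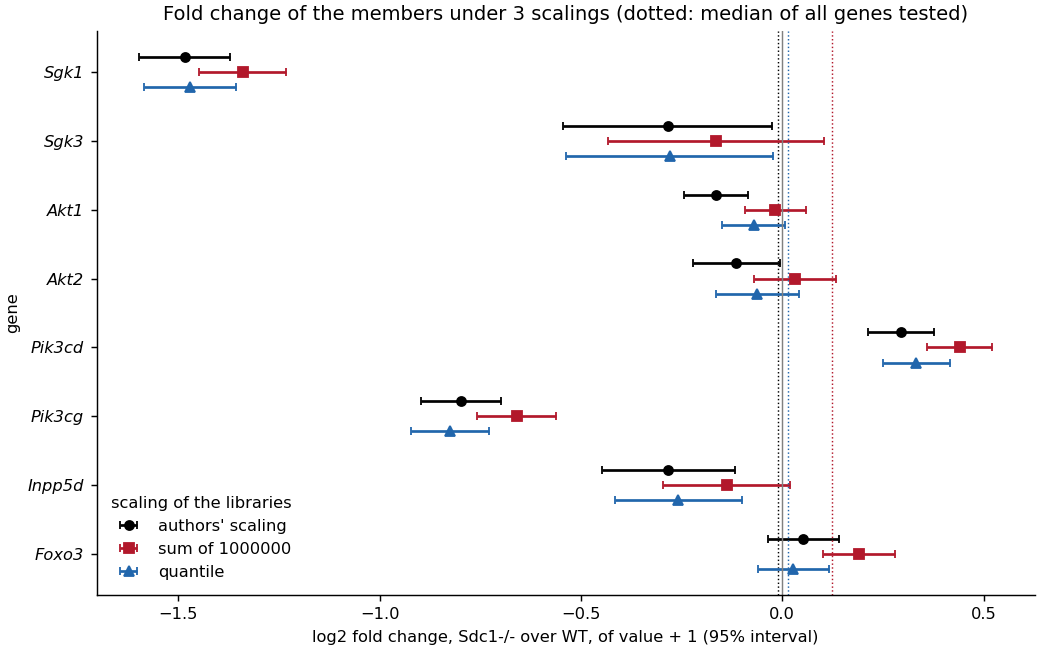
Log2 fold change (Sdc1-/- over WT, on value + 1) of the 8 members with 95% intervals, in the scaling of the authors (circles), with all libraries brought to an equal sum (squares) and after quantile normalization (triangles), where dotted lines mark the median of all genes tested in each. Sgk1 and Pik3cg stay below 0 and Pik3cd above 0 in all 3 scalings, while Akt1 and Inpp5d lie nearer 0, Akt2 at 0.032 and Foxo3 at 0.19 with equal sums.

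Within the libraries labelled WT, the order of the members by level was Akt1, Akt2, Sgk1, Inpp5d, Pik3cd, Pik3cg, Foxo3 and Sgk3, with means from 129 to 4.99. Inpp5d and Pik3cd, at 47.3 ± 1.39 and 45.6 ± 1.21 (SD, n = 3), overlapped, and no other neighbours did. In the libraries labelled Sdc1-/- the order was Akt1, Akt2, Pik3cd, Inpp5d, Sgk1, Foxo3, Pik3cg and Sgk3, and Akt2 and Pik3cd, at 57.2 ± 3.07 and 56.2 ± 1.13 (SD, n = 3), were the only neighbours to overlap. Sgk1 thus went from rank 3 to rank 5, and Pik3cg and Foxo3 changed places.

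The wider pathway was described with a list of 60 genes that includes the members, and 50 of them had a mean of at least 1. Of these 50, 15 were higher, 20 lower and 15 not called, a share of called genes close to the 60.7% over all genes tested, and the median log2 fold change was -0.11. With equal sums, 22 were higher and 14 lower, and this scaling turned the majority. By role, the PI3K catalytic genes had 1 higher and 3 lower of 5 tested, the regulatory subunits and adaptor 2 and 3 of 5, and the lipid phosphatases 2 and 3 of 8. PDK1 and the mTOR complexes had 3 higher and 3 lower of 9, the AKT inhibitors 0 and 2 of 4, and the substrates and effectors 6 and 4 of 14. With equal sums the same 6 groups had, in that order, 2 higher and 2 lower, 2 and 3, 3 and 2, 5 and 1, 1 and 2, and 8 and 3.

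The upstream kinases of AKT and Sgk did not move together. Rictor, the defining subunit of mTORC2, rose from 3.59, 3.93 and 3.92 to 5.91, 5.93 and 5.98 (log2 fold change 0.53, SE 0.054, limma adjusted p = 0.000170). Mtor, the kinase of both complexes, fell to 68.3% of its WT mean (log2 fold change -0.51, limma adjusted p = 0.000105), while the mTORC1 subunit Rptor was not called. Pdpk1, which encodes PDK1, was at 10.1, 10.2 and 10.8 and at 8.19, 8.73 and 9.05, and its log2 fold change of -0.23 (limma adjusted p = 0.00670) was not called with equal sums.

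Other pathway genes were called with a log2 fold change of at least 0.5 in size. Trib3, a pseudokinase that binds AKT, was at 6.06, 5.50 and 5.71 in the WT group and at 1.64, 1.94 and 1.78 in the group labelled Sdc1-/-. Its log2 fold change of -1.28 (SE 0.068, limma adjusted p = 9.25e-06) was second in size to Sgk1 in the list. Pik3ip1, a membrane protein that inhibits PI3K, fell from 21.1, 18.3 and 20.0 to 11.2, 11.6 and 10.5 (log2 fold change -0.78, limma adjusted p = 5.62e-05). Ndrg1, whose protein is a well-known Sgk1 substrate, fell from 46.0, 44.7 and 45.6 to 31.8, 32.2 and 30.1 (log2 fold change -0.52, limma adjusted p = 3.25e-05). Other genes of the list of substrates and effectors were called with a log2 fold change under 0.5 in size. Of these, Nedd4l, the ubiquitin ligase that Sgk1 inhibits, Gsk3b and Bad were lower, and Tsc1, Tsc2, Gsk3a, Rps6kb2, Foxo4 and Tbc1d4 were higher. The call of Bad was lost with equal sums, and that of Tbc1d4 without replicate 1 or 3 of the WT group or any 1 library of the other, without a minimum mean and with the replicate block. These are mRNA levels and hold no measurement of phosphorylation.

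**Figure D4:**
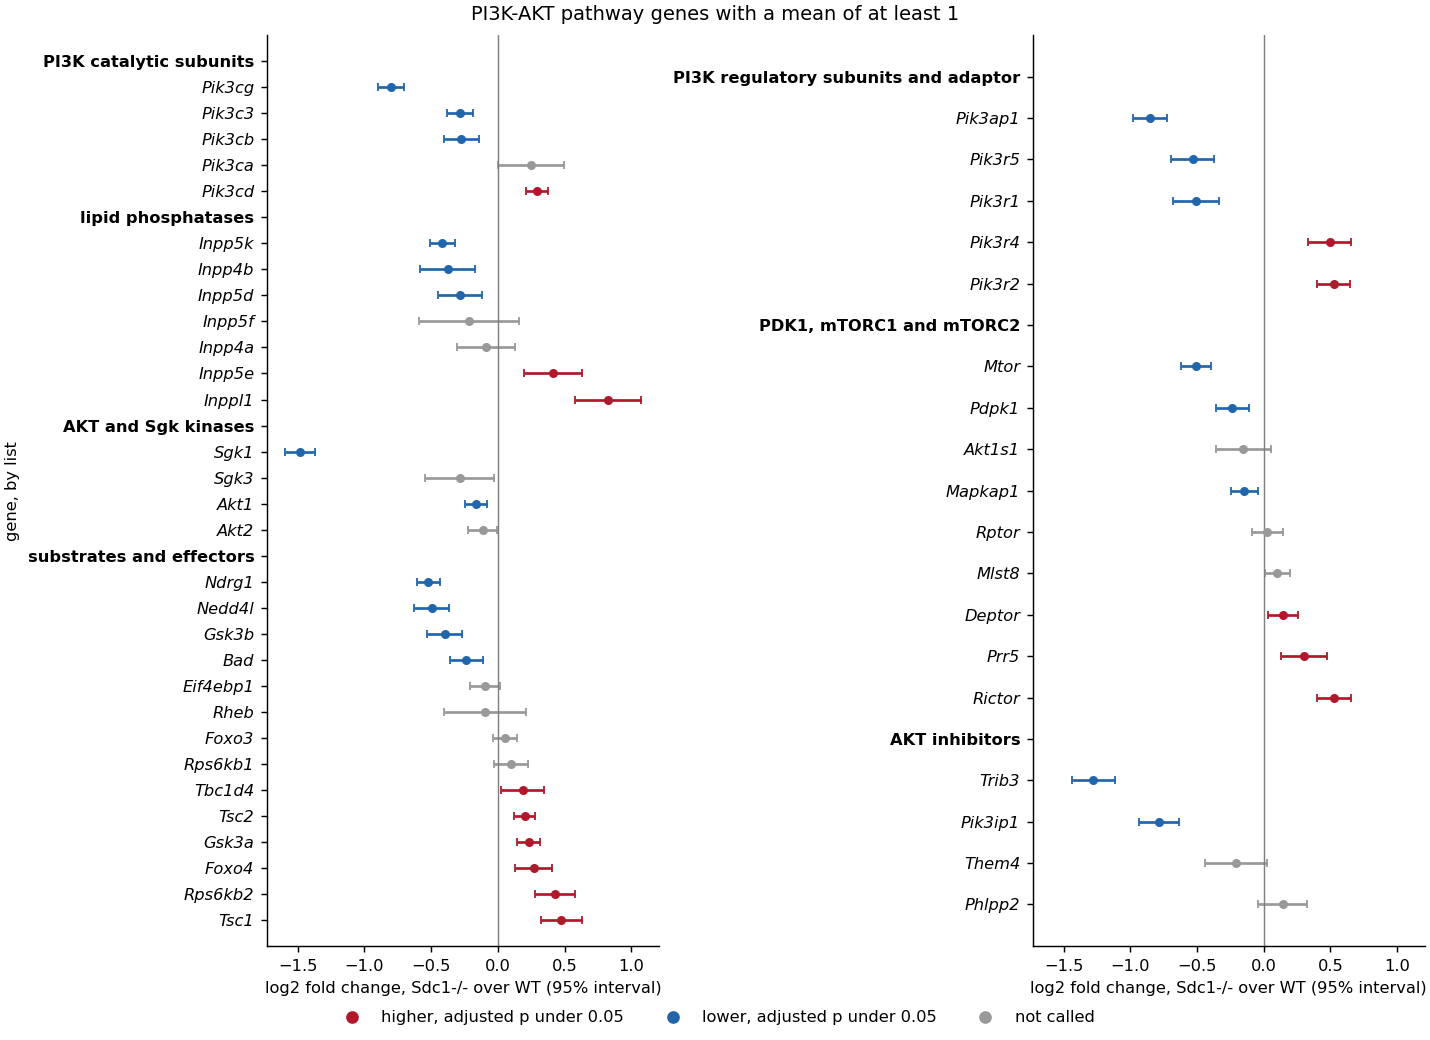
Log2 fold change (Sdc1-/- over WT) with its 95% interval for 48 of the 50 pathway genes with a mean of at least 1, grouped by role, in red for genes called higher, blue for genes called lower and grey for genes not called. Sgk1 at -1.48 and Trib3 at -1.28 lie farthest to the left, and Inppl1 at 0.82 farthest to the right.

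Gene lists on either side of these kinases were counted without a set test. Sgk1 is itself a textbook glucocorticoid-induced gene, and of the 12 genes in a list of such genes, Sgk1 among them, 11 had a mean of at least 1. Of these 11, 10 were lower and 1 was higher in the libraries labelled Sdc1-/-, with a median log2 fold change of -0.68 beside -0.0097 for all genes tested, of which 60.7% were called and 31.3% were lower. With equal sums, 8 were lower and 1 higher, and the median was -0.65 relative to that of all genes. Beside Sgk1, the largest falls were those of Dusp1, a phosphatase of MAP kinases, at 10.97, 11.3 and 11.2 against 3.35, 3.04 and 2.97 (log2 fold change -1.56, limma adjusted p = 2.01e-06), and of Nfkbia, the NF-κB inhibitor, with a log2 fold change of -1.04 (limma adjusted p = 7.69e-06). The single gene that rose was the metallothionein gene Mt2, at 564, 556 and 568 against 684, 643 and 591 (log2 fold change 0.18, limma adjusted p = 0.0205), and its call was lost without replicate 1 or 2 of the libraries labelled WT or replicate 2 of those labelled Sdc1-/-, each of which left 0 higher genes. Whether the mice differed in hormone exposure was not measured.

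FoxO target genes, which active AKT and Sgk are known to keep down, were counted from a list of 22 genes, 16 of which had a mean of at least 1. Of these 16, 11 were lower, 0 higher and 5 not called, with a median log2 fold change of -0.21, where 60.7% of all genes tested were called and 31.3% were lower. The count fell to 6 lower and 1 higher with equal sums, where the median was -0.20 relative to that of all genes, and to 10 lower and 0 higher after quantile normalization. Klf2, a factor that keeps lymphocytes quiescent, was at 9.70, 8.70 and 9.35 and at 3.37, 2.86 and 3.12 (log2 fold change -1.32, limma adjusted p = 8.25e-06). Txnip, which binds thioredoxin and limits glucose uptake, fell by 0.82 on the log2 scale (limma adjusted p = 8.92e-06). In both genes no library labelled Sdc1-/- came near the libraries labelled WT. Neutrophil and monocyte markers, with medians of -1.53 and -1.11 on the log2 scale, were lower in the same libraries, and their part in this result was not tested.

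**Figure D5:**
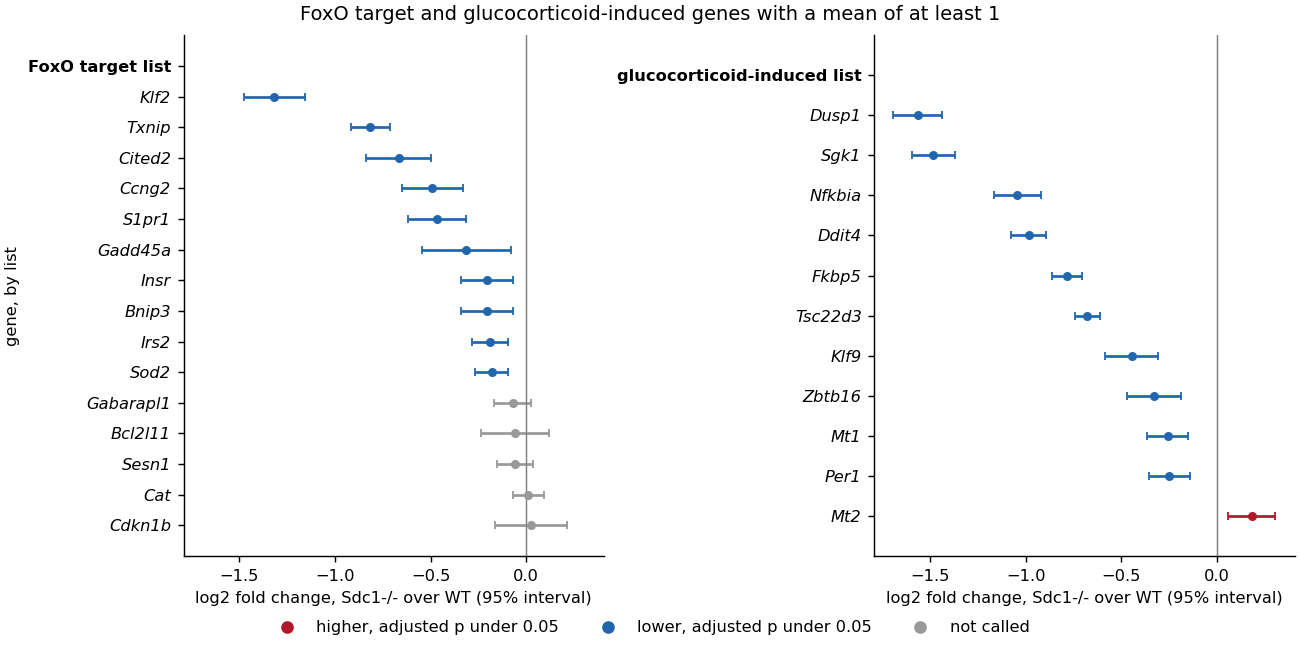
Log2 fold change (Sdc1-/- over WT) with its 95% interval for 15 of the 16 FoxO target genes and the 11 glucocorticoid-induced genes with a mean of at least 1, in red for genes called higher, blue for genes called lower and grey for genes not called. In the glucocorticoid-induced list 10 of 11 genes lie below 0, with Mt2 above it, and in the FoxO list the 5 grey genes lie near 0.

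The genes whose values followed Sgk1 most closely were sought among 8965 other genes with a mean of at least 5, by the Euclidean distance between log2(value + 1) less its mean over the 6 libraries. The nearest were Trnp1 (distance 0.0929), Sqor (0.103), Lgals7 (0.104), Pirb (0.108) and Cfp (0.116). Their log2 fold changes lay between -1.51 and -1.48, so each shared with Sgk1 the size of the step between the groups. Since that step makes up most of the distance, and the 6 libraries are all that was compared, the likeness is a description of these libraries.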

How the data were processed

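RNA-seq was measured in Lin- bcCML cells in 2 groups of 3 libraries, grouped by their titles. A stranded mRNA kit, 150 ng of RNA and single 75-base reads were used throughout. The authors assigned reads with kallisto (version not given in the sources used here), summed them per gene and deposited a signal per gene and library, TPM rescaled between libraries. The submitters' processing notes list sleuth 0.30.0 and mm10. A second deposited table, of 8520 genes, holds the authors' own comparison (p-values, effect sizes, variances) and was not used. Of the gene identifiers, 35454 of 36083 matched a symbol in GENCODE M21.

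Genes whose mean reached 1 were tested as log2(value + 1) with limma 3.58.1 (R 4.3.3), a model of group alone with a variance trend, and Benjamini-Hochberg adjustment at 0.05. That scale understates the fold changes of low genes. Depth is unknown, so precision rests on the spread between libraries. Plain TPM had been assumed in the design, but the rescaled values call for no other test. Shares were compared by exact permutation over libraries. In all, 15 fits were made, varying the pseudocount, minimum mean, scaling, variance trend, replicate block and libraries. The fit was also run on simulated data in which far fewer genes were changed than were called here, all by the same size. That run therefore does not speak for the share of genes called in the real data.

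The members and lists were chosen with earlier results of these data known. Values are given for the members, Sdc1, pathway genes called with an absolute log2 fold change of at least 0.5, paralogs and partners of the members, the 3 largest rises and falls of each further list, and the 5 genes nearest to the member that changed most. Ddx3y, Eif2s3y, Uty, Spi1, Akt2-ps, Pik3r4, the named megakaryocyte and stromal marker genes, and the substrates and effectors without values were added afterwards. A few genes of the lists are counted but not reported here by name, and the AKT shares and the count of AKT and Sgk kinases, which need 1 of them, are left out for that reason and not for their result. Figures used Python 3.11.15 and matplotlib 3.10.9.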

Additional observations from a re-analysis of the deposited data

How the results depend on the processing

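Of 111 values of the members under the alternatives, 102 kept direction and call, 3 lost the call, 5 gained it and 1 changed sign. With all libraries brought to an equal sum, 2380 instead of 3810 genes were lower over the whole table, 2 members were higher and 2 lower, and the FoxO target list had 7 genes called, 1 higher and 6 lower, while Akt2 turned to 0.032. A minimum mean of 5, which tests fewer genes, left 9 pathway genes higher. Without a minimum mean, 0 glucocorticoid-induced genes were higher, and with each library left out in turn the count ran from 0 to 1. The cause of these shifts was not tested, apart from the median shift that equal sums bring by construction. Leaving out a library moved the differences in share by less than 1.5 times for each family.

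The replicate numbers were not shown to pair the libraries, since the correlations of same-numbered libraries' deviations were 0.151, -0.00828 and 0.0185. With the replicate block 7 members were called, with Sgk3 (limma adjusted p = 0.0215) and Akt2 (limma adjusted p = 0.0283) added, and 7624 genes over the whole table.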
